A study of Mus musculus with 4 samples.

Results

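The clustered histone genes were described here in neonatal mouse testis cells, with and without the deletion of Cnot3 in germ cells. They were taken as every gene of the count matrices whose symbol begins with Hist1h, Hist2h, Hist3h or Hist4h, which gave 67 of 30828 genes. The rule used names only and no measured value. By the histone they encode, the members were 6 H1, 18 H2A, 18 H2B, 12 H3 and 13 H4 genes. The 54 Hist1 members lay within chr13:21715763-23934851, the 10 Hist2 members within chr3:96219865-96270132, the 2 Hist3 members within chr11:58948920-58956830, and the only Hist4 member, Hist4h4, at chr6:136801553-136804415 (GRCm38). All 67 were annotated as protein-coding.

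The study profiled single cells from testes at postnatal day 8 by droplet sequencing of transcript 3′ ends, after a sort for cells positive for CD9 and THY1. The labels give the control genotype as wild-type and the other as Cnot3 KO. In the study's neonatal work controls were Cnot3flox/flox littermates, and Cnot3-cKO mice carried Ddx4-creER beside the same floxed alleles. Both were given 4-hydroxytamoxifen from postnatal day 1, which lets the inducible Cre act in cells that express Ddx4, that is in germ cells, so the somatic cells of both genotypes keep Cnot3. The labels end the injections on postnatal day 1, 2, 3 or 4 depending on the sample, whereas the study's methods describe the same course of injections for all animals. Which of these is right was not settled here, and the number of animals behind a sample was not given. Each genotype has 2 labelled samples, but both were merged in 1 matrix, so that there was 1 library per genotype and no replicate spread. No test was therefore made. Levels are given as UMIs (molecules counted once by their barcode) per 1000000 UMIs of the same cells (CPM), and all intervals are exact 95% intervals that cover counting error only. A gene was called higher or lower between genotypes past 1.5-fold, and between phases, stages or cell classes past 2-fold in both libraries, each with at least 100 UMIs over the compared cells.

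Clustered histone genes supply the bulk of the core histones H2A, H2B, H3 and H4 and the linker histone H1 that package newly replicated DNA, and their transcripts are known to accumulate in S phase and to be cleared when replication ends. Most of these mRNAs carry no poly(A) tail. They end instead a few bases after a conserved stem-loop, which is bound by the stem-loop binding protein SLBP. A minor part is polyadenylated at sites further downstream, above all in differentiated cells. The testis also has its own members, among them the linker histone gene Hist1h1t and the core histone genes Hist1h2aa and Hist1h2ba, which serve the chromatin of meiotic and later germ cells. CNOT3 is a subunit of CCR4-NOT, the complex that shortens poly(A) tails. The libraries were primed from poly(A), so a change in the level of a histone mRNA and a change in the share of it that could be captured cannot be told apart, and in sums over many cells fewer expressing cells and less RNA per cell cannot be told apart either.

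The stem-loop is shown first, because it decides which transcripts end without a tail. It was searched for as an arm of 6 bases that opens with GG, a loop of 4 bases that opens with TT, and the reverse complement of the arm, in the annotated bases after the stop codon. A match was found in 44 of the 67 members, 21 to 58 bases after the stop codon with a median of 31. Within the last 500 bases of a transcript it was found in 32 of 67 members (47.8%), against 54 of 21877 protein-coding genes (0.247%). Capitals mark the pairing arms in these examples, 1 for each kind of arm and loop found:
Hist1h2ap: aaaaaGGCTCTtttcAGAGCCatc
Hist1h1t: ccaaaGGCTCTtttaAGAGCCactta
Hist1h4d: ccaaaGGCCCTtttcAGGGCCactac
Hist1h4b: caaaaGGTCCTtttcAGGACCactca
Hist2h2ac: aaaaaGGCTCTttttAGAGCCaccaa
Hist1h4i: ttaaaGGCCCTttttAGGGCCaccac

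The 16 bases of arm, loop and arm lie on chr13:21833029-21833044 (minus strand) for Hist1h2ap, chr13:23696525-23696540 (plus) for Hist1h1t, chr13:23581950-23581965 (plus) for Hist1h4d, chr13:23757366-23757381 (plus) for Hist1h4b, chr3:96220418-96220433 (minus) for Hist2h2ac and chr13:22040966-22040981 (minus) for Hist1h4i, all in 3′ untranslated sequence. The arm and loop of Hist1h2ap were shared by 25 members, 10 H2A, 7 H2B, 5 H3 and 3 H1 genes. The arm and loop of Hist1h4d were found together in 7 members, all of them H4 genes, and those of Hist1h1t, the same arm as Hist1h2ap with another loop, in 6. The kind of Hist1h4i, the arm of Hist1h4d with another loop, and the kind of Hist1h4b were seen in 2 members each, again H4 genes only, and that of Hist2h2ac in 1. Kinds were read from 1 transcript per gene, which leaves out Hist1h2bp, whose match lies in another transcript. For 13 members, among them Hist1h1b, Hist1h2aa and Hist1h2ba, the annotation ends at the stop codon, and no stem-loop could be looked for there.

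The annotated ends also bear on what the libraries could count. Hist1h2ap was annotated to 57 bases past the stop codon and 3 past its stem-loop, the end of a transcript without a tail. Hist3h2a, by contrast, was annotated to 1700 bases past the stop codon, and 22 members reached more than 100 bases past their stem-loop. The polyadenylation hexamer AATAAA was found within 40 bases of the annotated end in 14 members. Sequence is also shared between members: of the 90-base stretches in the last 500 bases of a transcript, 92.4% in Hist1h2ap and 99.03% in Hist1h1e also occurred in another gene, against 47.7% in Hist1h2ae and none in Hist1h1a, Hist1h1b or Hist1h2aa. For Hist1h1e, which overlaps annotated transcripts of Hist1h2be and Gm11398 on its own strand, and for Hist1h2ap the split of reads between genes is uncertain. In all, 29 members shared more than 50% of these stretches.

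The start sites of Hist1h2aa and Hist1h2ba lie 281 bases apart on opposite strands, so that this testis-specific H2A and H2B gene share 1 promoter, and both had their highest level in the same germ stage. The 250 bases before the start are shown for Hist1h2aa (chr13:23934187-23934436, plus strand), for Hist1h2ap, the member with the highest level in germ-like cells (chr13:21833476-21833725, minus strand), and for Hist1h1b, the one with the highest level in somatic cells (chr13:21780626-21780875, minus strand), from RefSeq on GRCm38.p6. Capitals mark the CCAAT box (CCAAT), the TATA box (TATAAA) and the octamer (ATTTGCAT) on either strand, each motif counted on its own:
Hist1h2aa: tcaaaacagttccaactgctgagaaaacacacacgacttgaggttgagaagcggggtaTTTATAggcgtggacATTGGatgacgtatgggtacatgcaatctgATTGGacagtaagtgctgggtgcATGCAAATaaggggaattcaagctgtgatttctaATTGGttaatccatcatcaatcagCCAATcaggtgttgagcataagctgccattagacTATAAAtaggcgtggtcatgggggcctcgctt
Hist1h2ap: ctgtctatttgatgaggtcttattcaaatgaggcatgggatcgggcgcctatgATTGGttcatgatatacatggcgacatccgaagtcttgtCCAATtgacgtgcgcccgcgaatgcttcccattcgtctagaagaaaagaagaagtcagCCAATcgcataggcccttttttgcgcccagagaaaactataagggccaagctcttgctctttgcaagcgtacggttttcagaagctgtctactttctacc
Hist1h1b: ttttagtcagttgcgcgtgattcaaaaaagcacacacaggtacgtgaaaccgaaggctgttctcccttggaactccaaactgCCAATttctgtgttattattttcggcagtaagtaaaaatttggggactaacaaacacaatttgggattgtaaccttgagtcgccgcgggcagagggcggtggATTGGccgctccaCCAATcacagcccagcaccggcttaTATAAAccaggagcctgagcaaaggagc

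The shared promoter of Hist1h2aa held 4 CCAAT boxes, 2 TATA boxes and 1 octamer, the last at position -124 from the start site of Hist1h2aa. Hist1h2ap and Hist1h1b each had 3 CCAAT boxes and no octamer, and Hist1h1b alone of these 2 had a TATA box, at position -28. Promoters of 62 members were found in RefSeq. The CCAAT box was present in 51 of them (82.3%, against 33.9% of all 32851 promoters), the TATA box in 29 (46.8% against 12.4%) and the octamer in 14 (22.6% against 1.601%). The octamer was found in 7 of 18 H2A and 7 of 16 H2B promoters and in 0 of 6 H1, 0 of 10 H3 and 0 of 12 H4 promoters. Where 2 members are a divergent pair like Hist1h2aa and Hist1h2ba, a motif between 2 start sites counted for both.

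The control library held 181550221 UMIs and the Cnot3-cKO library 168770743, of which members took 89955 and 84229 in called cells. After a mild filter on mitochondrial UMIs, 8259 control and 9268 Cnot3-cKO cells were kept, and 18 called barcodes occurred in both libraries. Clusters were named by marker genes, and clustering left out the histone genes. Germ-like cells numbered 1334 and 561 and had UMIs of 8 of 8 germ markers (summed 3817 and 3751 CPM, at most 65.2 in the other 2 classes). Sertoli-like cells numbered 3120 and 4656 and had 10 of 10 Sertoli markers (11603 and 12038 CPM). Interstitial cells, a class of stroma- and myoid-named clusters, numbered 3700 and 3932 and had 6 of 6 stroma markers (16851 and 16105 CPM). Cnot3 itself was at 71.1 CPM (68.9 to 73.3) in control and 39.4 (37.0 to 41.9) in Cnot3-cKO germ-like cells, against 62.8 and 66.5 in Sertoli-like and 45.5 and 44.9 in interstitial cells. Germ-like cells also held Sertoli markers, all 10 of them, at 323 and 426 CPM in sum. Set against the empty barcodes, that is a share of free RNA of at most 9.30 and 7.83%. Sertoli-like cells held stroma markers at 1267 and 994 CPM, by the same measure a share of at most 24.8 and 18.1%. Interstitial cells held Sertoli markers at 172 and 244 CPM, a share of at most 4.94 and 4.48%.

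Of the 67 members, 57 had at least 100 UMIs over the called cells of both libraries, 10 had fewer, and 1 of these, Hist1h2bq, had none. Summed over all members, the level was 570 CPM in the control and 706 in the Cnot3-cKO germ-like cells, 717 and 661 in Sertoli-like cells, and 394 and 368 in interstitial cells. The sum was thus of like size in germ-like and Sertoli-like cells, and lower in interstitial cells in both libraries. Few genes made it up. The 6 members with the highest levels held 61.0 and 67.6% of the sum in germ-like cells, 71.5 and 74.2% in Sertoli-like cells, and 69.8 and 70.4% in interstitial cells. Members at 1 CPM or more numbered 44 and 42 in germ-like, 36 and 35 in Sertoli-like, and 27 and 23 in interstitial cells. A UMI marks 1 transcript end whatever the length, so levels were not divided by length.

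**Figure D1:**
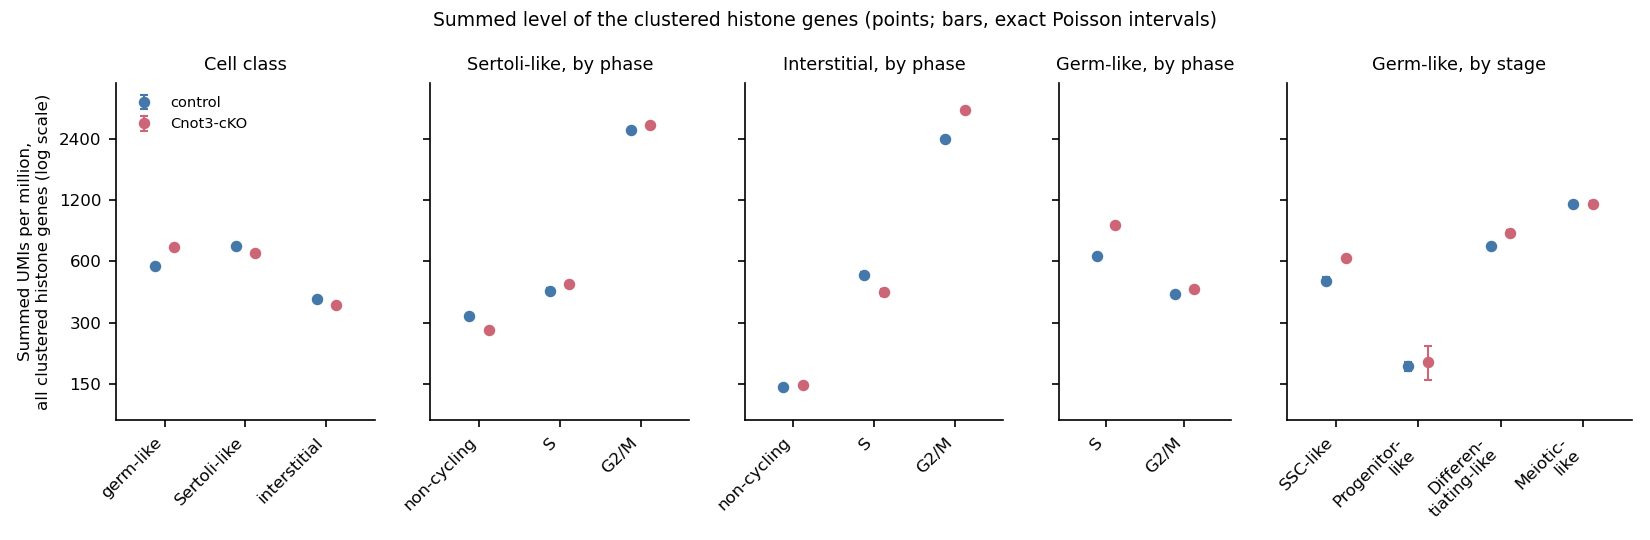
Summed level of the 67 clustered histone genes in CPM (log axis) by cell class and phase, and by germ stage, with 1 point per library and exact 95% intervals, which are mostly smaller than the points. Sertoli-like and interstitial cells called G2/M sit between 2400 and 3300 in both libraries, above all other groups shown, and among germ stages Meiotic-like cells are highest at 1145 in the control and 1151 in the Cnot3-cKO library.

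The linker histone genes did not share 1 order across classes. Hist1h1a was at 73.3 CPM in the control and 62.7 in the Cnot3-cKO germ-like cells, against 11.02 and 8.44 in Sertoli-like and 7.10 and 5.92 in interstitial cells. Hist1h1b showed the opposite order, with 12.3 and 27.8 CPM in germ-like cells, 176 and 154 in Sertoli-like cells and 102 and 77.5 in interstitial cells. It was the largest single part of the somatic sums, 24.5 and 23.3% in Sertoli-like and 25.9 and 21.1% in interstitial cells. Hist1h1e stood at 23.4 and 46.5 CPM in germ-like, 113 and 91.4 in Sertoli-like, and 50.2 and 48.5 in interstitial cells. Hist1h1c and Hist1h1d were also lower in germ-like than in Sertoli-like cells of both libraries, at 23.7 and 23.99 against 42.9 and 31.2 CPM for Hist1h1c, and at 7.404 and 8.24 against 17.6 and 9.68 for Hist1h1d, neither past 2-fold in both.

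Among H2A genes, Hist1h2ap was the largest part of the germ-like sum, 31.2% in control and 39.8% in Cnot3-cKO. Its level was 178 and 281 CPM in germ-like cells, 75.5 and 116 in Sertoli-like cells, and 46.8 and 58.0 in interstitial cells. Hist1h2ae, another replication-dependent H2A gene, was nearer to even across classes, with 26.8 and 33.8 CPM in germ-like, 42.9 and 42.6 in Sertoli-like and 22.02 and 20.1 in interstitial cells. Hist3h2a was somatic, at 3.24 and 2.93 CPM in germ-like cells against 32.2 and 32.5 in Sertoli-like and 23.9 and 23.0 in interstitial cells. The H2B gene Hist1h2bc had the same order, with 4.97 and 7.20 CPM in germ-like, 62.6 and 53.5 in Sertoli-like and 21.4 and 20.7 in interstitial cells. The H4 gene Hist1h4d hardly differed, between 20.7 and 25.5 CPM in all 3 classes of both libraries.

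Summed over whole classes, the testis variants had low or zero levels outside germ-like cells. Hist1h2aa had 22.7 CPM in the control and 25.5 in the Cnot3-cKO germ-like cells, against at most 0.209 in Sertoli-like and interstitial cells. Hist1h2ba stood at 2.86 and 3.39 CPM in the germ-like class, at 0.0419 and 0.0745 in Sertoli-like cells and at 0 in interstitial cells. Hist1h1t stood at 1.75 and 3.50 CPM in the germ-like class from 99 and 91 UMIs, 0.335 and 0.253 in Sertoli-like, and 0.619 and 0.424 in interstitial cells. Within the interstitial cells called G2/M, however, it reached 5.50 and 4.97 CPM, from 25 and 16 UMIs, above its germ-like level in both libraries. In all, 18 of the 53 members tested were higher in germ-like than in Sertoli-like cells past 2-fold in both libraries (26.3% of all genes were), and 9 were lower (22% of all genes were). Both members' counts lie near what these background shares give. The higher ones included all 3 testis variants, Hist1h1a and Hist1h2ap, and the lower ones Hist1h1b, Hist3h2a and Hist1h2bc.

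Cell cycle phase was the widest axis of variation in somatic cells. Phases were called from 37 S-phase and 51 G2/M genes, none of them a clustered histone gene. Sertoli-like cells called S numbered 778 and 1062, those called G2/M 377 and 477, and the non-cycling ones 1965 and 3117. As a description of these calls, Mki67, which is on the G2/M list, in Sertoli-like cells was at 3.07 and 2.60 CPM in non-cycling, 27.9 and 36.2 in S and 490 and 527 in G2/M cells, while Mcm6, a replicative helicase subunit on the S list, was highest in S at 195 and 187, against 55.8 and 59.5 in G2/M and 37.8 and 36.7 in non-cycling cells. The summed histone level followed the G2/M call more than the S call. It was 324 CPM in the control and 276 in the Cnot3-cKO non-cycling Sertoli-like cells, 431 and 467 in S and 2634 and 2800 in G2/M, a G2/M to non-cycling ratio of 8.13 and 10.1. Interstitial cells gave 145 and 148 CPM in non-cycling, 516 and 423 in S and 2400 and 3300 in G2/M cells, a ratio of 16.5 and 22.3. With phases called from thinned sums of the list genes, by which most cells were called G2/M, the log2 difference (mean of both libraries) fell from 3.18 to 1.64 in Sertoli-like and from 4.26 to 1.801 in interstitial cells.

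The phase call takes the higher of 2 scores, and cells often score on both. Sertoli-like cells above 0 on the S score alone had a summed level of 217 CPM in the control and 207 in the Cnot3-cKO library, below the 324 and 276 of cells above 0 on neither. Those above 0 on both scores had 2863 and 2957, and those above 0 on the G2/M score alone 1220 and 1264. In interstitial cells the same 4 groups, S alone, neither, both and G2/M alone, stood at 112 and 114, 145 and 148, 2707 and 3357, and 647 and 837 CPM. In both classes and both libraries, then, histone mRNA was highest in cells that carry the S and the G2/M programs at the same time, and cells with the S score alone did not exceed those with neither. Scores near the boundary were common: 25.03 and 24.2% of Sertoli-like cells and 24.2 and 26.8% of interstitial cells lay within 0.05 of the score that separates cycling from non-cycling cells.

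Per cell, the contrast was broad rather than carried by a few cells. After thinning each cell to 10000 UMIs, the median Sertoli-like cell called G2/M held 25 histone UMIs in the control and 25 in the Cnot3-cKO library, with a 90th percentile of 53 and 55. The median S cell and the median non-cycling cell held 2 in both libraries, and the 90th percentile of non-cycling cells was 7 and 6. Sertoli-like cells with no histone UMI made up 1.10 and 0.674% of the G2/M cells and 12.9 and 16.4% of the non-cycling ones. Interstitial cells had a median of 1 when non-cycling in both libraries, and of 14 and 22 when called G2/M.

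**Figure D2:**
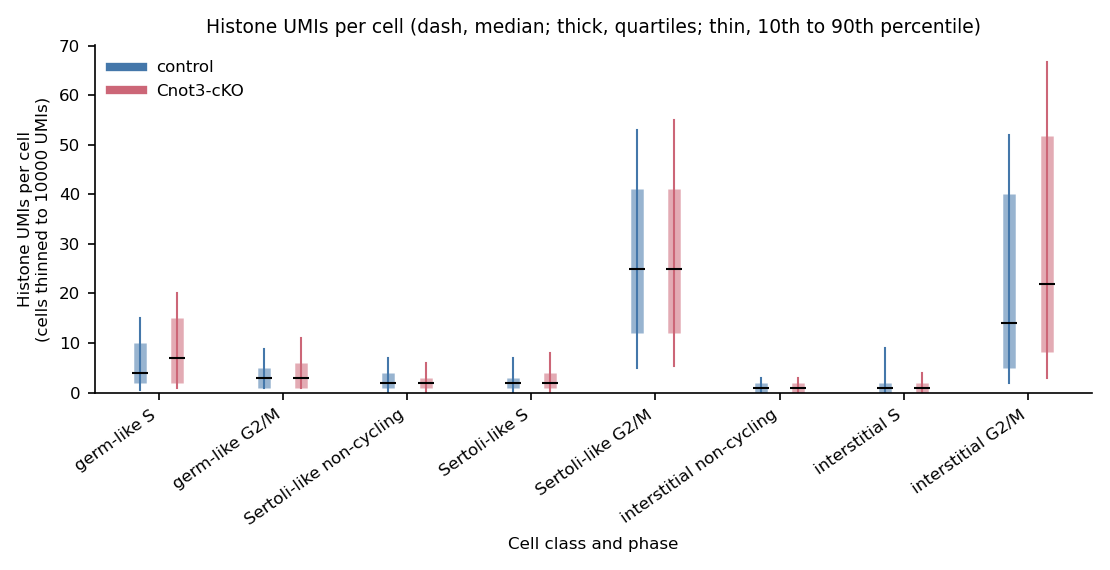
Histone UMIs per cell after thinning to 10000 UMIs, by class, phase and library, with a dash for the median, a thick bar for the quartiles and a thin line from the 10th to the 90th percentile. The G2/M bars of Sertoli-like cells (median 25 in both libraries) lie above the non-cycling bars (median 2), whereas germ-like cells called S (median 4 in the control and 7 in the Cnot3-cKO library) and G2/M (median 3 in both) overlap.

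By gene, 32 of 35 members with enough UMIs were higher in G2/M than in non-cycling Sertoli-like cells (4.74% of all genes were), with a median log2 difference of 3.87. In interstitial cells 19 of 22 were (6.18% of all genes), with a median of 3.63. Hist1h2ap was among the most extreme, at 5.61 CPM in the control and 9.63 in the Cnot3-cKO non-cycling Sertoli-like cells, 52.8 and 92.95 in S, and 370 and 655 in G2/M, a G2/M to non-cycling ratio of 66.0 and 68.1. Hist1h2ae went from 6.22 and 5.97 CPM through 23.4 and 26.3 to 210 and 243, a ratio of 33.7 and 40.6. The H3 gene Hist1h3c went from 0.434 and 0.573 CPM through 5.02 and 4.13 to 60.9 and 50.8, and its ratio of 140 and 88.6 rests on 12 and 24 UMIs in non-cycling cells.

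Among the H1 genes, Hist1h1b, Hist1h1c and Hist1h1e had higher levels in non-cycling Sertoli-like cells than Hist1h2ap and Hist1h2ae, and Hist1h1a and Hist1h1d lower ones. Hist1h1b was at 53.1 and 47.3 CPM in non-cycling, 133 and 135 in S and 697 and 686 in G2/M Sertoli-like cells, a ratio of 13.1 and 14.5. In interstitial cells, where its non-cycling level was 7.59 and 9.38 CPM, it reached 828 and 953 in G2/M, a ratio of 109 and 102. Hist1h1e was at 68.5 and 50.5 CPM in non-cycling, 72.2 and 64.2 in S and 345 and 331 in G2/M Sertoli-like cells. For Hist1h1a the values were 1.92 and 0.908, 7.33 and 7.89, and 50.5 and 44.5 CPM. Hist1h1c, at 33.5 and 22.7, 19.4 and 15.8, and 116 and 98.3 CPM, was the H1 gene with the smallest G2/M to non-cycling ratio in Sertoli-like cells, 3.48 and 4.33. All 5 somatic H1 genes were thus higher in G2/M than in non-cycling cells of both classes and libraries, by unequal factors.

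Only 3 members were not past 2-fold in both libraries of the Sertoli-like G2/M comparison, Hist3h2a, Hist1h2bc and Hist2h2be, and these were named after their values were seen. Hist3h2a was flat, at 36.2 and 35.5 CPM in non-cycling, 21.5 and 23.98 in S, and 35.5 and 34.4 in G2/M cells, a ratio of 0.982 and 0.969. Hist1h2bc was at 68.2 and 56.1 CPM in non-cycling cells, 8.601 and 14.2 in S and 132 and 112 in G2/M, a ratio of 1.929 and 2.003. Hist2h2be had 2.53 and 2.46 CPM in non-cycling and 5.97 and 4.67 in G2/M cells. In interstitial cells the members not past 2-fold were Hist3h2a, Hist2h2be and Hist4h4, with Hist3h2a again flat at 25.8 and 24.2 CPM in non-cycling and 25.3 and 22.1 in G2/M cells.

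**Figure D3:**
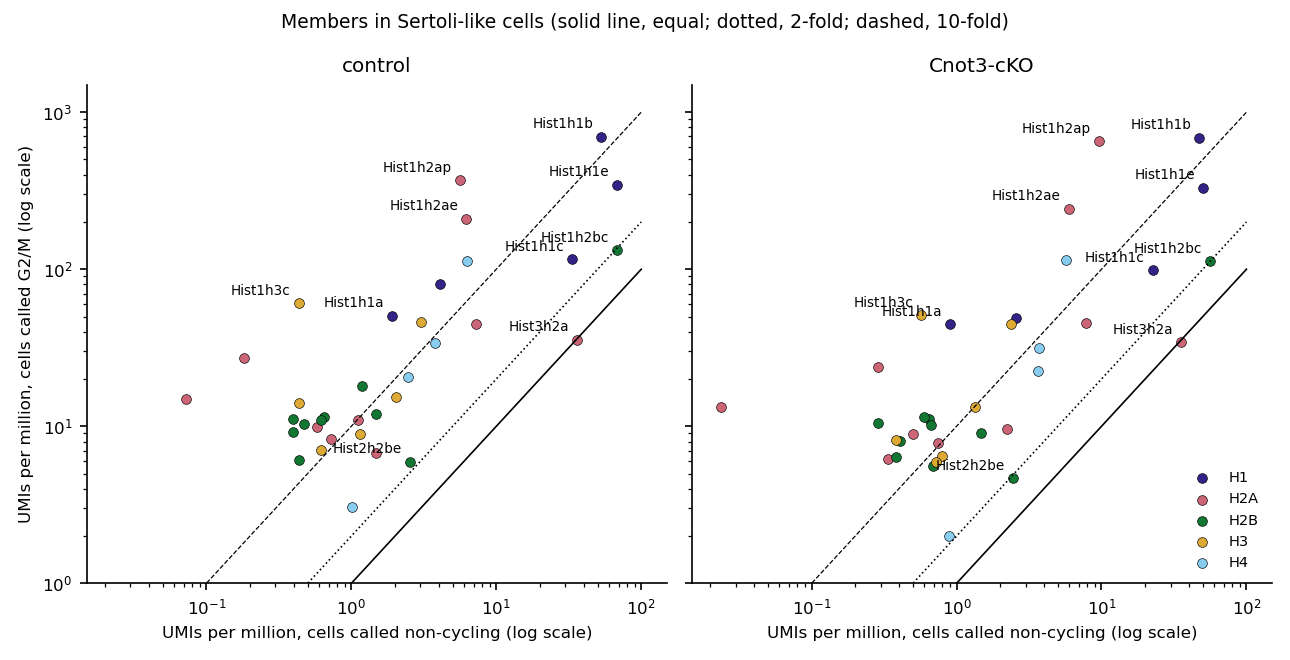
Level in Sertoli-like cells called G2/M (vertical) against non-cycling cells (horizontal), both in CPM on log axes, with 1 point per member with at least 100 UMIs and 1 panel per library. Nearly all points lie above the line of equal levels. Hist3h2a lies on it, with ratios of 0.982 in the control and 0.969 in the Cnot3-cKO library, and Hist1h2ap lies far above it, with ratios of 66.0 and 68.1.

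These 3 members share a long annotated 3′ end. Hist3h2a, Hist1h2bc and Hist2h2be were annotated to 1700, 742 and 2192 bases past the stop codon. Among Sertoli-like members whose annotation reached more than 500 bases past it, a limit set after the values were seen, 9 of 12 were past 2-fold with a median ratio of 6.34. Among those with a shorter annotated end it was 23 of 23, with a median of 17.0. In interstitial cells the same split gave 7 of 10 with a median of 5.997 and 12 of 12 with a median of 42.5. Sorted instead by the stem-loop and the hexamer, the summed level of the 34 genes with a stem-loop alone had a G2/M to non-cycling ratio of 11.3 in the control and 15.3 in the Cnot3-cKO Sertoli-like cells. The ratio was 4.75 and 5.73 for the 10 genes with both, 5.82 and 6.05 for the 4 with the hexamer alone, and 7.47 and 8.43 for the 19 with neither, which include Hist1h1b and the other members annotated only to the stop codon. In interstitial cells the order differed, with 34.25 and 37.97 for the genes with neither, 18.1 and 27.6 for those with a stem-loop alone, 6.10 and 8.68 for those with both and 3.54 and 4.24 for those with the hexamer alone. Which ends the UMIs came from was not tested.

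S phase alone gave a smaller contrast, and it was not shared by all histone types. In Sertoli-like cells 7 of 22 members were higher in S than in non-cycling cells (2.34% of all genes were), namely Hist1h1a, Hist1h1b, Hist1h1d, Hist1h2ae, Hist1h2ap, Hist1h3a and Hist1h3c. Hist1h2bc alone was lower past 2-fold (0.0324% of all genes were). Hist1h3a was at 1.16 and 0.788 CPM in non-cycling, 5.42 and 3.39 in S and 8.88 and 6.45 in G2/M cells. Hist1h4i was level between non-cycling and S, at 3.76 and 3.66 against 3.90 and 3.33 CPM, and reached 33.8 and 22.6 in G2/M. When phases were called instead from sums of the list genes' UMIs after thinning, the summed S to non-cycling difference in Sertoli-like cells turned from 0.58 to -0.11 on the log2 scale and 1 member in place of 8 was past 2-fold. In interstitial cells 7 of 18 members were higher in S (3.04% of all genes were), the same list but with Hist1h4i in place of Hist1h3a. Compared directly, 31 of 34 members were lower in S than in G2/M in Sertoli-like cells (2.91% of all genes were) and 19 of 20 in interstitial cells (3.7% of all genes were).

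Summed by type, G2/M over non-cycling Sertoli-like cells gave a ratio of 8.01 in the control and 9.75 in the Cnot3-cKO library for H1, 12.4 and 16.5 for H2A, 3.14 and 3.14 for H2B, 17.6 and 19.3 for H3, and 12.3 and 11.9 for H4. H2B stood apart in S as well, where its sum was 0.328 and 0.442 times that of non-cycling cells. Hist1h2bc made up 62.6 of the 90.4 CPM of all H2B genes in control and 53.5 of the 75.3 in Cnot3-cKO Sertoli-like cells, so this type value is largely that of 1 gene.

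Genes that act on histone mRNA or protein were set beside the members. Of 10 histone chaperone genes, 6 were higher in S than in non-cycling Sertoli-like cells (2.34% of all genes were), with log2 differences (mean of both libraries) of 3.07 for Chaf1a, 2.79 for Asf1b, 2.75 for Mcm2, 2.50 for Chaf1b, 1.49 for Nasp and 1.17 for Hat1. No chaperone gene, Mcm2 included, was in the lists that called the phases. Of these 6 genes, 4 were higher in G2/M as well (4.74% of all genes were), Asf1b by 4.19, Chaf1a by 2.79, Chaf1b by 1.29 and Mcm2 by 1.16. Among 18 genes for histone mRNA processing and turnover, 1 was higher in S, Casp8ap2 at 1.16, and 1 in G2/M, the nuclease gene Eri1 at 1.08. Slbp, which encodes the stem-loop binding protein, stayed under 2-fold in Sertoli-like cells, at 99.7 and 106 CPM in non-cycling, 183 and 178 in S and 151 and 167 in G2/M cells. In interstitial cells it was called higher in both phases, at 50.7 and 50.2 CPM in non-cycling, 184 and 155 in S and 122 and 136 in G2/M cells, log2 differences of 1.74 and 1.36. There 3 of the 18 processing genes were higher in S (3.04% of all genes were), Slbp, Casp8ap2 and Eri1, and 3 in G2/M (6.18% of all genes were), Slbp, Eri1 and Lsm11. Of 11 histone genes outside the clusters, most of which are not tied to replication, 5 were higher in G2/M than in non-cycling Sertoli-like cells, among them the centromeric Cenpa at 5.63, H2afx at 2.88 and H2afz at 2.06, and 0 in S.

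Germ-like cells gave another picture. None was called non-cycling, and 1321 of 1334 control and all 561 Cnot3-cKO cells scored above 0 on both lists, so that S and G2/M here only say which of the scores was higher. The 940 control and 329 Cnot3-cKO cells called S had a summed histone level of 636 and 901 CPM, and the 394 and 232 called G2/M had 415 and 438, the reverse of the order in somatic cells. The difference came mostly from H2A, whose S to G2/M ratio was 2.25 and 3.02, against 1.01 to 1.65 for the other types. Only 4 of 42 members were past 2-fold in both libraries (0.105% of all genes were), Hist1h2aa, Hist1h2an, Hist1h2ap and Hist2h2aa2, all of them H2A genes. Hist1h2ap was at 217 CPM in the control and 396 in the Cnot3-cKO S cells, and at 84.4 and 123 in G2/M cells. For the testis variant Hist1h2aa the values were 28.6 and 35.6 in S and 9.04 and 11.6 in G2/M. The linker gene Hist1h1b was lower in S than in G2/M in control, at 9.35 against 19.4, but not in Cnot3-cKO, at 28.9 against 26.3.

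Germ-like cells were clustered again without histone and cell cycle genes and named from stage markers. SSC-like (spermatogonial stem cell-like) cells numbered 130 in the control and 269 in the Cnot3-cKO library, the Progenitor-like 204 and 13, the Differentiating-like 353 and 84, and Meiotic-like cells 160 and 73, while 487 and 122 stayed unnamed. The SSC-like cells of the 2 genotypes came from different clusters, 129 of the 130 control cells from 1 and 246 of the 269 Cnot3-cKO cells from another that held 1 control cell. Summed SSC markers in SSC-like cells were at 556 CPM in the control and 368 in the Cnot3-cKO library. The other stage lists were higher in the Cnot3-cKO SSC-like cells. Meiotic markers were at 790 and 1290 CPM, Differentiating markers at 230 and 399, and Progenitor markers at 133 and 186. In SSC-like cells a difference between genotypes and a difference in germ cell state therefore cannot be told apart. Part of the unnamed cells stood in clusters led by Sertoli or stromal genes. The name Meiotic-like rests on markers only, and these cells still held Differentiating markers at 560 and 591 CPM. The study lists spermatogonia as the most advanced germ cells before this age and leptotene spermatocytes after it. Meiotic-like cells need therefore not be in meiosis.

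Over the stages the summed histone level was 482 CPM in the control and 620 in the Cnot3-cKO SSC-like cells, 183 and 192 in Progenitor-like cells, 716 and 823 in the Differentiating-like and 1145 and 1151 in Meiotic-like cells. The order of the stages was the same in both libraries, with the dip in Progenitor-like cells, of which Cnot3-cKO had only 13. Meiotic-like cells exceeded SSC-like cells 2.38-fold in control and 1.86-fold in Cnot3-cKO. The size of this difference depended on the cells and genes taken: its log2 value (mean of both libraries) was 1.07, but 2.36 with the study's stated cell filters and 0.59 without Hist1h2ap. In Progenitor-like cells 10 of 19 members were lower than in SSC-like cells (3.09% of all genes were). Among these Hist1h2ap was at 37.7 and 54.3 CPM against 113 and 216, and Hist1h1a at 15.9 and 15.3 against 56.7 and 45.9.

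**Figure D4:**
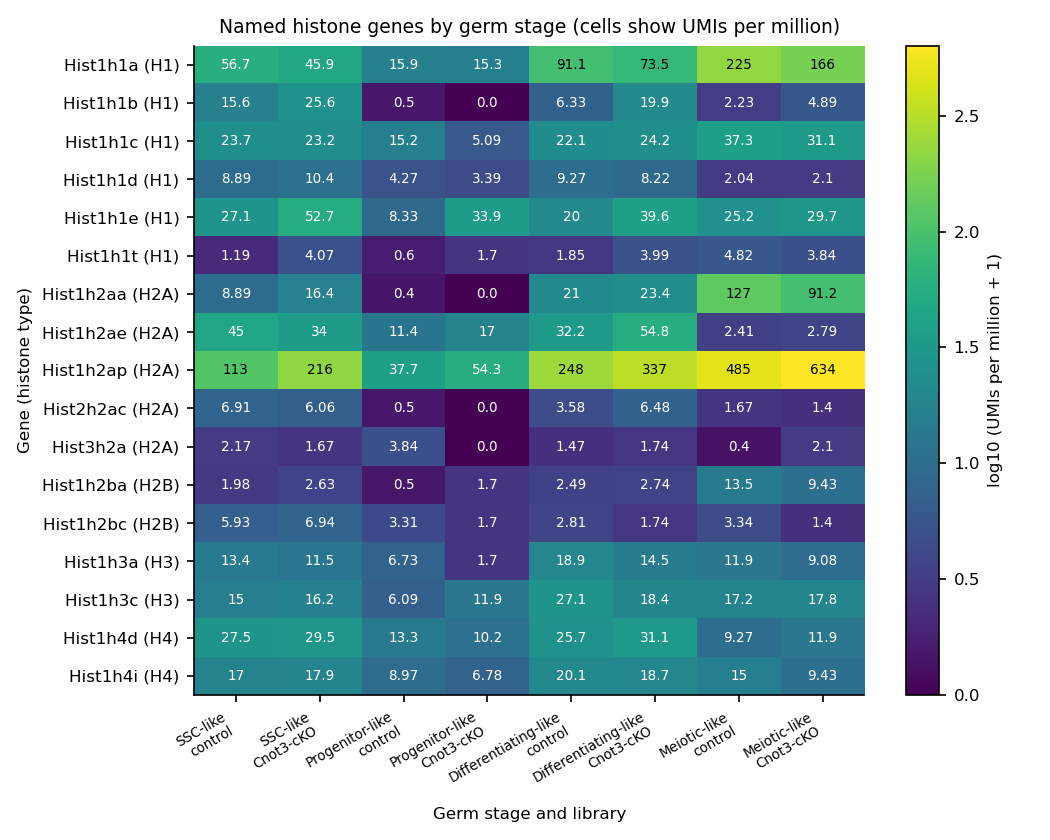
Level of the named members in each germ stage and library, as numbers in CPM with colour on the scale log10 (value + 1), brighter for higher. Hist1h2aa, Hist1h2ap, Hist1h1a and Hist1h2ba are brightest in the Meiotic-like columns, where Hist1h1b (2.23 in the control and 4.89 in the Cnot3-cKO library) and Hist1h2ae (2.41 and 2.79) are dark.

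Both members of the testis-specific pair were highest in Meiotic-like cells. Hist1h2aa was at 8.89 and 16.4 CPM in SSC-like, 0.427 and 0 in Progenitor-like, 21.0 and 23.4 in Differentiating-like and 127 and 91.2 in Meiotic-like cells. Its divergent partner Hist1h2ba, shown above with the shared promoter, was far lower. In the same order of stages it was at 1.98 and 2.63, 0.534 and 1.70, 2.49 and 2.74, and 13.5 and 9.43 CPM. In Cnot3-cKO its SSC-like, Progenitor-like and Differentiating-like levels rest on 33, 1 and 11 UMIs. No order among these lower stages can be read there. Hist1h1t, the linker histone of meiotic cells, was at 1.19 and 4.07 CPM in SSC-like and at 4.82 and 3.84 in Meiotic-like cells, from 26 and 11 UMIs in the latter, so that no order between the libraries can be read. The number of cells with a UMI told the same of Hist1h2aa. After thinning to 10000 UMIs it was seen in 55.6% (47.6 to 63.5) of control and 49.3% (37.4 to 61.3) of Cnot3-cKO Meiotic-like cells, in 5.43% (2.21 to 10.9) and 8.99% (5.84 to 13.1) of SSC-like cells, and in 0 of 200 and 0 of 12 Progenitor-like cells, which allows shares of cells with a UMI at this depth of up to 1.5 and 25% and sets no limit on cells that express it. Without thinning 4 of the 204 control Progenitor-like cells had a UMI. In Sertoli-like cells, which should lack it, the share was 0.281 and 0.120%. Without thinning, Hist1h2aa was seen in 73.8 and 74.0% of Meiotic-like cells and 15.4 and 21.9% of SSC-like cells, at median depths of 32962 and 36227 UMIs and of 38941 and 45336, and in 0.321 and 0.193% of Sertoli-like cells at 13561 and 12935.5.

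The replication-dependent genes did not share 1 order. Hist1h2ap was at 113 and 216 CPM in SSC-like, 248 and 337 in Differentiating-like and 485 and 634 in Meiotic-like cells. Hist1h1a likewise went from 56.7 and 45.9 CPM in SSC-like through 91.1 and 73.5 in Differentiating-like to 225 and 166 in Meiotic-like cells. Other members were lower there than in SSC-like cells. Hist1h2ae was at 45.03 and 33.97 CPM in SSC-like and 32.2 and 54.8 in Differentiating-like cells, but at 2.41 and 2.79 in Meiotic-like cells. Hist1h1b went from 15.6 and 25.6 in SSC-like to 2.23 and 4.89 CPM in Meiotic-like cells, Hist1h1d from 8.89 and 10.4 to 2.04 and 2.10, and Hist2h2ac from 6.91 and 6.06 to 1.67 and 1.40. Hist1h1b and Hist2h2ac were lower still in Progenitor-like cells, each at 0.534 CPM from 5 UMIs in the control and at 0 in the 13 Cnot3-cKO cells. Hist1h1e was at 27.1 and 52.7 in SSC-like and 25.2 and 29.7 in Meiotic-like cells and was not called. In all, 7 of 22 members were higher in Meiotic-like than in SSC-like cells (9.62% of all genes were), Hist1h1a, Hist1h2aa, Hist1h2ab, Hist1h2ap, Hist1h2ba, Hist1h2bm and Hist3h2ba, and 6 were lower (13.1% of all genes were), Hist1h1b, Hist1h1d, Hist1h2ae, Hist2h2ac, Hist1h3e and Hist1h4d. By type, the H2A sum went from 197 and 297 CPM in SSC-like to 656 and 763 in Meiotic-like cells and the H1 sum from 133 and 162 to 296 and 238, whereas H3, at 43.5 and 41.5 against 34.7 and 30.7, and H4, at 57.7 and 63.9 against 48.2 and 36.0, did not increase.

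Between genotypes, the summed level in germ-like cells was 570 CPM in the control and 706 in the Cnot3-cKO library, a ratio of 1.24 (1.22 to 1.26). In Sertoli-like cells, where Cnot3 is intact in both genotypes, it was 717 and 661, a ratio of 0.922, and in interstitial cells 394 and 368, a ratio of 0.933. The germ-like difference lay mostly in H2A, at 259 and 373 CPM, and H1, at 142 and 173, whereas H2B was at 71.0 and 65.5, H3 at 43.5 and 37.8 and H4 at 54.7 and 57.0. It rested largely on Hist1h2ap, without which the summed log2 ratio was 0.12 in place of 0.31. By phase the ratio was 1.42 in germ-like cells called S, with 636 and 901 CPM, and 1.06 in those called G2/M, with 415 and 438. By stage it was largest in SSC-like cells, 1.29, where the genotypes' cells came from different clusters, and 1.15 in Differentiating-like cells, while Meiotic-like cells were nearly level at 1145 and 1151 CPM. With the study's stated cell filters, which leave 314 germ-like cells, the log2 ratio was 0.15.

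Gene by gene, 7 of 42 members were higher in Cnot3-cKO germ-like cells past 1.5-fold (6.75% of all genes were) and 3 were lower (3.13% of all genes were). The members as a group were not shifted, with 21 above and 21 below a log2 ratio of 0. Intervals lay wholly past 1.5-fold for 3 members. Hist1h1b was at 12.3 CPM in the control and 27.8 in the Cnot3-cKO library, from 700 and 722 UMIs, a log2 ratio of 1.17 (1.02 to 1.32). Hist1h1e was at 23.4 and 46.5 CPM, from 1329 and 1208 UMIs, a log2 ratio of 0.99 (0.88 to 1.10). Hist1h2ap was at 178 and 281 CPM, from 10082 and 7298 UMIs, a log2 ratio of 0.66 (0.62 to 0.71). The other higher members were Hist1h1t at 1.01 (0.58 to 1.43), Hist2h2ac at 0.73, Hist1h3b at 0.64 and Hist2h2aa2 at 0.61, and the lower ones Hist4h4 at -0.67, Hist1h2ac at -0.65 and Hist3h2ba at -0.60. The most abundant germ-like linker gene, Hist1h1a, went the other way from Hist1h1b and Hist1h1e, at 73.3 and 62.7 CPM, a log2 ratio of -0.23 (-0.31 to -0.14) that was not called. Hist1h2aa, at 22.7 and 25.5 CPM, and Hist1h2ae, at 26.8 and 33.8, were not called either.

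**Figure D5:**
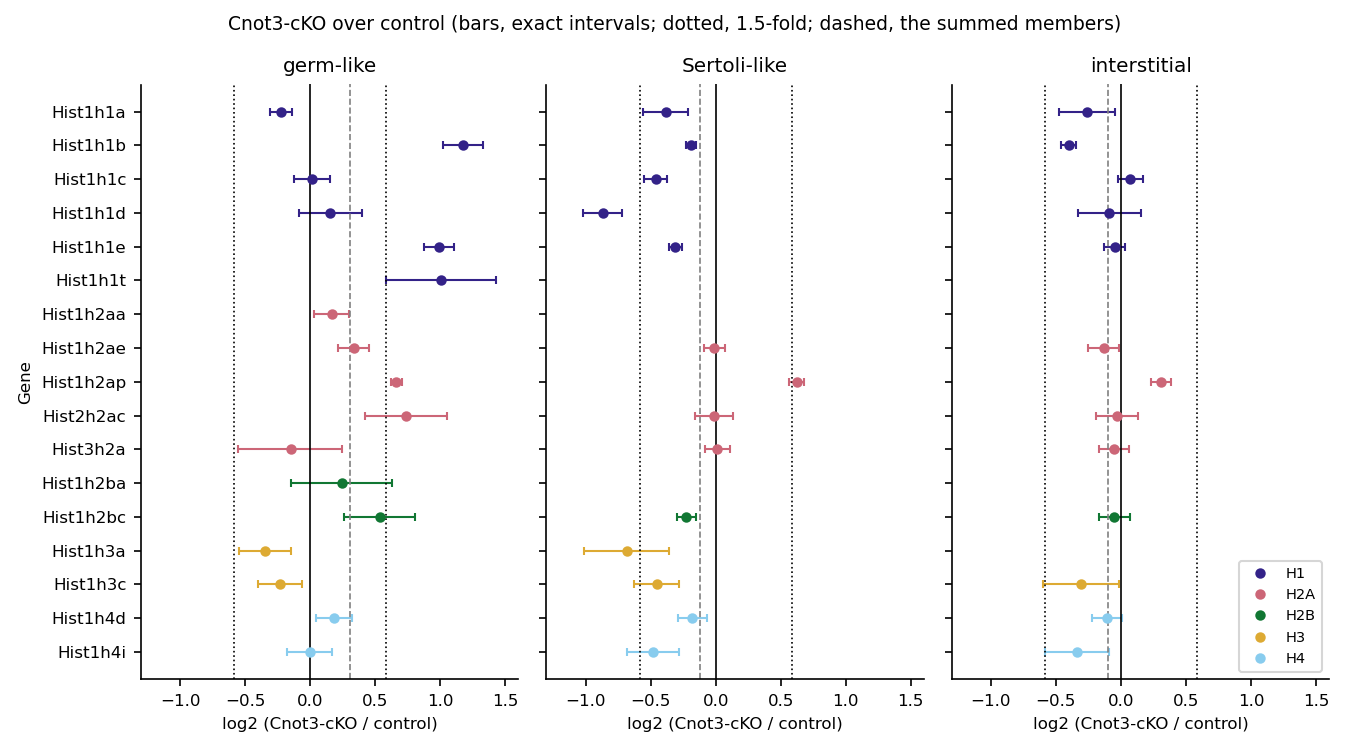
Log2 ratio of Cnot3-cKO over control (horizontal) for each named member with at least 100 UMIs in germ-like, Sertoli-like and interstitial cells, with exact 95% intervals, colours for the 5 histone types, dotted lines at 1.5-fold and a dashed line at the ratio of the summed members. Named members with fewer UMIs are not drawn. In germ-like cells Hist1h1b (1.17), Hist1h1e (0.99) and Hist1h2ap lie beyond the 1.5-fold lines with their whole intervals. In Sertoli-like cells Hist1h2ap (0.62) is the only named member past the upper line.

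Hist1h1b and Hist1h1e were called higher in the SSC-like and in the Differentiating-like cells, whereas in Meiotic-like cells Hist1h1b had too few UMIs for a call and Hist1h1e was not called. Hist1h1b was at 15.6 and 25.6 CPM in SSC-like and 6.33 and 19.9 in Differentiating-like cells, with log2 ratios of 0.71 (0.36 to 1.09) and 1.66 (1.21 to 2.10). In Meiotic-like cells it rested on 12 and 14 UMIs, with a log2 ratio of 1.14 (-0.08 to 2.38). Hist1h1e was at 27.1 and 52.7 CPM in SSC-like, 20.02 and 39.6 in Differentiating-like and 25.2 and 29.7 in Meiotic-like cells, with log2 ratios of 0.96, 0.99 and 0.24, the last with an interval that includes 0 (-0.17 to 0.64). For Hist1h2ap the ratios were 0.94 in SSC-like, 0.44 in Differentiating-like and 0.39 in Meiotic-like cells, and for Hist1h1a -0.30, -0.31 and -0.44. Hist1h2aa was higher in Cnot3-cKO SSC-like cells, by 0.89 (0.42 to 1.39), and lower in Cnot3-cKO Meiotic-like cells, where its log2 ratio was -0.48 (-0.69 to -0.27).

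By phase, 8 of 37 members were higher past 1.5-fold in Cnot3-cKO germ-like cells called S (5.95% of all genes were). Hist1h1b was at 9.35 and 28.9 CPM there, a 3.09-fold difference, Hist1h1e at 23.8 and 56.7, Hist1h1t at 1.61 and 4.52, Hist1h2ap at 217 and 396, and Hist1h2ae at 29.5 and 47.1. The remaining 3 were Hist1h2ai, Hist2h2aa2 and Hist2h2ac. In germ-like cells called G2/M the same genes were closer, with Hist1h1b at 19.4 and 26.3 CPM, Hist1h1e at 22.5 and 32.6, and Hist1h2ap at 84.4 and 123, while Hist1h2ae was at 20.7 and 15.5, in the other direction. The members past 1.5-fold there (9.17% of all genes were) were Hist1h2bc and Hist1h3c. Hist1h2bc was higher, at 4.55 and 9.60 CPM, with its whole interval past 1.5-fold, and Hist1h3c was lower, at 18.6 and 12.3.

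Of the 3 main classes, Sertoli-like cells had the highest levels of Hist1h1b and Hist1h1e, and Sertoli markers moved with them. Summed over all 10, these markers were at 323 CPM in the control and 426 in the Cnot3-cKO germ-like cells, at 72.1 and 120 in SSC-like, 73.9 and 135 in Differentiating-like and 75.7 and 113 in Meiotic-like cells, and at 743 and 1449 in the unnamed ones. Leaving out the germ-like subclusters led by somatic genes gave log2 ratios of 1.41 for Hist1h1b and 1.145 for Hist1h1e. Taking off the profile of the empty barcodes gave 1.44 and 1.07, where all germ-like cells gave 1.17 and 0.99. This subtraction takes a larger part of the lower control levels, so its result cannot show where the RNA came from. Whether Sertoli RNA had a part in these ratios was not tested.

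Hist1h2ap was also higher in the somatic cells of the Cnot3-cKO library. It was at 75.5 and 116 CPM in Sertoli-like cells, a log2 ratio of 0.62 (0.57 to 0.68), and at 46.8 and 58.0 in interstitial cells, where it was under 1.5-fold. Within Sertoli-like phases it was at 5.61 and 9.63 CPM in non-cycling, 52.8 and 92.95 in S and 370 and 655 in G2/M cells, and in interstitial cells called G2/M at 352 and 739. The gap in Hist1h2ap between the libraries was thus present in classes that keep Cnot3 in both genotypes. It was the 1 member of 37 higher past 1.5-fold in Sertoli-like cells (0.887% of all genes were), and 7 were lower (1.31% of all genes were), with 5 members above and 32 below a log2 ratio of 0 and a median of -0.34, where all genes had 0.03. Hist1h1d was the clearest, at 17.6 and 9.68 CPM, a log2 ratio of -0.87 (-1.02 to -0.72), and at 80.6 and 48.7 within G2/M cells. The others were Hist1h2ac, Hist1h2bb, Hist1h2bj, Hist1h2bl, Hist1h3a and Hist1h3d, between -0.59 and -0.93. In interstitial cells 0 of 25 members were higher (1.33% of all genes were) and 4 were lower (1.11% of all genes were), Hist1h2ac at -1.13 (-1.57 to -0.70), Hist1h3d at -1.004, Hist1h2be at -0.60 and Hist1h2bj at -0.60. Hist1h2ac, named after its values were seen, was lower past 1.5-fold in all 3 classes, at 2.66 and 1.69 CPM in germ-like, 2.97 and 1.85 in Sertoli-like and 2.66 and 1.22 in interstitial cells. With 1 library per genotype, a difference between the genotypes and a difference between the libraries cannot be told apart.

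The share of cells with a UMI moved with the level in germ-like and Sertoli-like cells, but for Hist1h2ap not in interstitial cells, where the level was higher and the share lower in the Cnot3-cKO library. After thinning, Hist1h2ap was seen in 52.8% (50.04 to 55.5) of control and 66.2% (62.1 to 70.2) of Cnot3-cKO germ-like cells, in 15.9 and 18.4% of Sertoli-like cells and in 6.75 and 6.12% of interstitial cells. In SSC-like cells it was seen in 37.2% (28.9 to 46.2) and 61.0% (54.9 to 66.9). Hist1h1b was seen in 5.96% (4.74 to 7.38) of control and 11.8% (9.22 to 14.8) of Cnot3-cKO germ-like cells, against 41.5 and 38.8% of Sertoli-like and 11.8 and 10.9% of interstitial cells. Without thinning, Hist1h1b was seen in 14.99 and 29.2% of germ-like cells, at median depths of 42275.5 and 46104 UMIs, and Hist1h2ap in 80.9 and 85.6%. Thinning left out 25 and 10 germ-like, 270 and 483 Sertoli-like, and 321 and 597 interstitial cells with fewer than 10000 UMIs. Hist1h1b was thus found in more germ-like cells of the Cnot3-cKO library, at the same depth.

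Over all germ-like cells, few of the genes around histone mRNA were past 1.5-fold between genotypes. Of 19 genes for processing and turnover tested in germ-like cells, 1 was past 1.5-fold, Zfp473, which encodes a protein of the histone pre-mRNA processing complex, at a log2 ratio of 0.65 (6.75% of all genes were higher and 3.13% lower), and 0 of 10 chaperone genes were. Slbp stood at 271 and 383 CPM in the germ-like cells called S and at 212 and 268 in those called G2/M. Of 11 histone genes outside the clusters, 1 was past 1.5-fold, the replacement H3 gene H3f3b at 0.74. In Sertoli-like cells none of the 3 lists had a gene past 1.5-fold, and in interstitial cells 1 chaperone gene was, Asf1b at -0.71 (1.11% of all genes were lower).

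Among germ stages, more of these genes were called in SSC-like and Progenitor-like cells only. More of all genes were called there too, against 9.88% over all germ-like cells. In SSC-like cells, where 15.8% of all genes were past 1.5-fold, 5 of the 11 histone genes outside the clusters were, with H3f3b at 1.02 and the linker gene H1fx at 0.85 higher and H2afx at -1.02, H2afy2 at -0.63 and H2afy at -0.61 lower, beside 1 of 18 processing genes, Npat at 0.63, and 0 of 10 chaperone genes. In Progenitor-like cells, of which Cnot3-cKO had only 13, 20.8% of all genes were past 1.5-fold, 12.4% lower and 8.36% higher. There 4 of 10 chaperone genes were lower, Hira at -3.33, Daxx at -1.09, Chaf1b at -0.78 and Chaf1a at -0.65. In those Cnot3-cKO cells 1 UMI is 1.70 CPM, so a low value can rest on very few UMIs, and intervals are not given here. Of the 11 outside the clusters, H2afx was lower there at -1.53, and H1f0 at 0.70 and H1fx at 0.62 were higher. In the Differentiating-like cells 1 gene of the 3 lists was past 1.5-fold, H2afx at -0.88 (6.66% of all genes were), and in Meiotic-like cells 1, Zcchc6 at 0.59 (2.3% of all genes were).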

How the data were processed

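Single cells from mouse testes at postnatal day 8 were measured in 4 labelled samples, 2 control and 2 Cnot3-cKO, deposited as 1 matrix per genotype, so samples and sequencing runs could not be separated. Both deposited matrices hold unnormalized counts of UMIs. The authors' tool was Cell Ranger 3.0.1 with mm10, per the submitters' processing notes, a program that counts only reads assigned to 1 gene. The study's methods name a Chromium 3′ kit, Illumina sequencers of 2 kinds and an Ensembl annotation, and alignment settings were not given in the sources used here. All barcodes were listed, so the order-of-magnitude rule (3000 expected cells, 99th percentile divided by 10) was used to call cells, which gave 8341 and 9336. Cells over 20% mitochondrial UMIs were left out. The study's own filters, 10% and the mean plus or minus 2 SD, leave 5615 and 6034 cells and were an alternative. How the study called cells before them was not stated. Both the main set and this alternative hold more cells of each genotype than the study reports, so neither reproduces its cells. Scrublet marked 499 (5.98%) and 454 (4.86%) cells as doublets, which were kept, since the study names no doublet caller, and left out in an alternative.

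Cells were clustered in scanpy 1.11.5 (leidenalg 0.10.2) on 2500 variable genes without histone genes, 30 components, 15 neighbours and resolution 0.5, after scaling to 10000 UMIs per cell. Clusters were named from at least 3 markers seen in at least 10% of their cells, by a score and a minimum share settled after the data were seen. Germ-like cells were clustered again without histone, mitochondrial and cell cycle genes. The counts of each class, phase or stage were summed per library. Intervals were exact Poisson (levels), conditional binomial (ratios) and Clopper-Pearson (shares), and they and the limits set by a count of 0 (3 cells) cover counting error only. On simulated counts for the germ-like comparison of 13300 genes, 100% of genes changed by 1 on the log2 scale were recovered. Of those changed by 2, 95% were, 95.2% of intervals held the true value and 0.313% of unchanged genes were called. These counts were drawn with counting error only, without differences between cells or libraries. They check the calculation and say nothing of error from having 1 library per genotype. Stem-loops were read from GENCODE M21 transcripts, promoters from RefSeq. Python 3.11.15, numpy 2.4.6, scipy 1.17.1 and pandas 2.3.3 were used.

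Named members were the 4 marker genes of the group, the 6 most abundant in each class, those with an interval past 1.5-fold in germ-like cells, the 4 at each end of the Meiotic-like to SSC-like and of the Sertoli-like S to non-cycling order, and the testis variants. The members and gene lists were chosen with earlier results of these data known.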

Additional observations from a re-analysis of the deposited data

Results flagged for a closer look

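For 5 members the ratio of Cnot3-cKO over control had its whole interval on one side of 0 in germ-like cells and on the other side in a somatic class. In none of these cases was the difference between the classes itself tested, since each genotype has 1 library. Hist1h1b had a log2 ratio of 1.17 in germ-like cells, against -0.19 in Sertoli-like and -0.40 in interstitial cells. Hist1h1e had 0.99 in germ-like and -0.31 in Sertoli-like cells. Hist1h2ae had 0.33 in germ-like and -0.13 in interstitial cells, and its germ-like value turned negative in germ-like cells called G2/M and in SSC-like cells. Hist1h2bc had 0.53 in germ-like and -0.23 in Sertoli-like cells. Its value was 1.08 in germ-like cells called G2/M and 0.23 in SSC-like cells. In Progenitor-like, Differentiating-like and Meiotic-like cells it was negative, with intervals that include 0. Hist1h4d had 0.18 in germ-like and -0.18 in Sertoli-like cells. It was negative in germ-like cells called G2/M, at -0.27 (-0.52 to -0.02), and in Progenitor-like cells, at -0.39 (-1.87 to 0.77). Sertoli markers in germ-like cells, 323 CPM in control and 426 in Cnot3-cKO, moved with the germ-like ratios of Hist1h1b, Hist1h1e and Hist1h2bc, whose levels are highest in Sertoli-like cells among the 3 main classes. For Hist1h1b the ratio was 1.41 without the germ-like subclusters led by somatic genes. The part of the Sertoli RNA in the ratios of these 3 members was not tested.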

How the results depend on the processing

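Values are log2 ratios unless they are counts. In germ-like cells the summed Cnot3-cKO over control ratio of 0.31 was 0.12 without Hist1h2ap, 0.15 with the study's stated filters, 0.28 without called doublets, 0.50 in cells called S, 0.079 in G2/M, 0.36 in SSC-like, 0.065 in Progenitor-like, 0.20 in Differentiating-like and 0.0079 in Meiotic-like cells, and 0.46 without the germ subcluster that held most Cnot3-cKO SSC-like cells. The 10 members past 1.5-fold became 2 with the stated filters, which leave 314 germ-like cells, 2 in G2/M, 5 in SSC-like, 1 in Progenitor-like, 5 in Differentiating-like and 1 in Meiotic-like cells, and 6 without that subcluster. Fewer UMIs pass the count minimum in these smaller groups. The Sertoli-like ratio of -0.12 was -0.24 without Hist1h2ap, -0.17 without doublets, -0.22 after subtraction of the empty-barcode profile and -0.15 with cells weighted equally. The interstitial ratio of -0.10 was -0.17 without Hist1h2ap and -0.13 with the stated filters.

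S over non-cycling in Sertoli-like cells, 0.58, was 0.37 without Hist1h2ap, 0.45 with the stated filters, 0.51 without doublets, 0.68 after the empty-barcode subtraction and 0.44 with equal weights, and reversed to -0.11 with phases from thinned sums of the list genes, by which most cells were called G2/M and 104 and 177 Sertoli-like cells stayed non-cycling. The 8 members past 2-fold became 5 with the stated filters and 1 with thinned sums. In interstitial cells 1.67 became 1.34 without Hist1h2ap, 1.797 after the subtraction, 1.43 with equal weights and 0.17 with thinned sums. G2/M over non-cycling, added after the data were seen, was 3.18 in Sertoli-like cells and 2.92 without Hist1h2ap, 2.92 with the stated filters, 3.23 without doublets, 3.54 after the subtraction and 1.64 with thinned sums. In interstitial cells it was 4.26, and 3.98, 4.30 with the stated filters, 4.44 after the subtraction, 4.14 with equal weights and 1.801 with thinned sums. Meiotic-like over SSC-like, 1.07, was 0.59 without Hist1h2ap, 2.36 with the stated filters, 1.13 after the subtraction, 1.21 with equal weights, 1.01 at the higher germ resolution and 0.85 with genes centred within libraries.

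Among single members, the germ-like ratio of Hist1h2aa (0.16) reversed to -0.44 with the stated filters and -0.48 in Meiotic-like cells, and that of Hist1h2ae (0.33) to -0.31 with the stated filters, -0.41 in G2/M and -0.41 in SSC-like cells. Hist1h1b stayed between 0.44 and 1.66, Hist1h1e between 0.24 and 1.25 and Hist1h2ap between 0.32 and 0.94. These ranges cover only alternatives with at least 100 UMIs of the gene over both libraries and some in each. In Progenitor-like cells, which fell short of that, Hist1h1e had 2.03 (1.24 to 2.75) from 78 and 20 UMIs. Hist1h1b had 5 UMIs there in the control and 0 in the Cnot3-cKO library. Of all other alternatives, 60 left a summed ratio or count and 84 a single member's ratio without a move beyond counting error or 1.5 times, and 36 moved a single member's ratio without a change of sign. The cause of these moves was not tested. No paired analysis was possible because each genotype has 1 merged library, and for the same reason no replicate could be left out. Depth limits members under 100 UMIs and the 13 Cnot3-cKO Progenitor-like cells most.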

Other observations

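Endothelial-like cells (37 in control and 42 in Cnot3-cKO) had a summed clustered histone level of 395 and 935 CPM, and macrophage-like cells (55 and 63) of 988 and 626 CPM. These 2 classes are small and moved in opposite directions. Hist1h2ap was at 29.4 and 230 CPM in endothelial-like and 177 and 90.7 in macrophage-like cells, and Hist1h1b at 37.6 and 180 and at 179 and 99.5. Barcodes of at most 100 UMIs, which hold no cell, had a summed level of 392 and 447 CPM, with Hist1h2ap at 59.1 and 68.5, Hist1h1b at 43.8 and 64.1, Hist1h1e at 36.7 and 50.2 and Hist1h2aa at 8.26 and 4.96.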
